A study of Mus musculus with 6 samples.

Results

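The 9 genes described here encode the membrane-shaping machinery of endothelial uptake: the caveolins *Cav1* and *Cav2*, the diaphragm protein gene *Plvap*, the EHD genes *Ehd1*, *Ehd2*, *Ehd3* and *Ehd4*, and the pacsin genes *Pacsin2* and *Pacsin3*. They were taken by gene symbol from the 23282 rows of the count files, and all 9 had a row. All 9 were among the 11583 genes kept for testing, and each was above the limit on low counts in every one of the 6 libraries. The libraries hold RNA of liver sinusoidal endothelial cells (LSECs), the cells lining the sinusoids of the liver, of *Txnip*-/- mice (3 libraries) and of C57BL/6J mice, called WT (3 libraries). *Txnip* encodes thioredoxin-interacting protein, and the *Txnip*-/- mice were total knockouts on the C57BL/6J background, so every cell type of these mice lacks the gene, not the LSECs alone. The cells were isolated by collagenase perfusion, a density gradient and magnetic beads against CD146, and no further treatment is given for these libraries. The paper describes culture of the selected LSECs, but it does not state whether the sequenced cells were cultured before their RNA was taken. The age and sex of these mice and whether each library came from a separate mouse are not given in the sources used here, so the p-values measure the spread between these libraries, which may be technical.

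Caveolae are flask-shaped pits of the plasma membrane that are built from caveolins together with cavin coat proteins and that take part in uptake, signalling and the buffering of membrane tension. PLVAP forms the radial fibrils of the diaphragms that span caveolae and the fenestrae of many capillaries, whereas mature LSECs are known for open fenestrae without diaphragms and for fast clathrin-dependent uptake. EHD proteins are dynamin-like ATPases that act at endosomes and, for EHD2, at the neck of caveolae, and pacsins are F-BAR proteins that bend membranes and bind EHD proteins and dynamin.

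The question was which of these genes differ between *Txnip*-/- and WT LSECs. *Ehd1* was higher in *Txnip*-/- LSECs and was the single member that met the rule for a differentially expressed gene (DEG), which asks for a fold change of more than 1.3 and for an adjusted p below 0.05 in edgeR's quasi-likelihood test with Benjamini-Hochberg adjustment. Over all genes tested, 1.44% met this rule in either direction and 0.509% met it as higher. *Cav2* and *Ehd2* had an unadjusted p under 0.05 without passing the adjustment, and *Cav1*, *Plvap*, *Ehd3*, *Ehd4*, *Pacsin2* and *Pacsin3* did not reach that either. With *Ehd1* this made 3 of 9 genes, against a background of 11.5% of all genes. The 3 libraries of one genotype lay apart from the 3 of the other for 5 of 9 genes, against 17.4% of all genes. They were higher in *Txnip*-/- for 3 genes, *Cav1*, *Ehd1* and *Ehd2* (8.43% of all genes), and lower for 2, *Cav2* and *Ehd3* (8.94% of all genes). All 9 genes were chosen with earlier results of these data known, so neither their directions nor these counts against the background are independent evidence.

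The libraries held 9147764 to 10193952 counts each, so that 3 counts, the floor of detection used here, correspond to 0.294 to 0.328 CPM, the counts scaled to a common library total. The counts of *Txnip* itself were 1901, 2019 and 1994 in WT replicates but 269, 216 and 191 in *Txnip*-/- replicates, a log2 fold change of -3.02 (SE 0.14), so each library matched its label. WT replicate 3 stood apart from the other WT libraries, with a chi-square per degree of freedom of 36.9 and 40.0 to them, against 3.93 between WT replicates 1 and 2 and 13.3 to 17.2 between WT replicate 3 and the *Txnip*-/- libraries. The values of the 9 genes are therefore also given without it and with a term for WT replicates 1 and 2, a fit in which WT replicate 3 alone stands for the WT level. All 10 LSEC markers and all 8 pan-endothelial markers were detected and had a log2 fold change below 0. Of the LSEC markers 2 were DEGs, *Stab1* and *Mrc1*, both lower, against 0.932% of all genes. Summed LSEC marker levels were 2448 to 2994 CPM in *Txnip*-/- and 2769 to 5101 CPM in WT libraries. *Lyve1* made up much of these sums, with 1475, 1642 and 1976 CPM in *Txnip*-/- and 3482, 3780 and 1520 CPM in WT replicates. The pan-endothelial sums were 2802 to 3071 CPM in *Txnip*-/- and 2927 to 3541 CPM in WT libraries. The summed level of 7 markers of continuous endothelium was 477 to 513 CPM in *Txnip*-/- and 501 to 538 CPM in WT libraries. Of the 6 tested, 3 were above 0 and 3 below in log2 fold change and none was a DEG. *Ly6a* (0.64), *Efnb2* (0.32) and *Gja4* (0.14) were above 0, and *Cd34* (-0.66), *Emcn* (-0.21) and *Sox17* (-0.13) below. Only *Ly6a* and *Efnb2* had an unadjusted p under 0.05, and *Vwf* had at most 13 counts in any library. The summed level of 11 macrophage markers was 237 to 268 CPM in *Txnip*-/- and 602 to 621 CPM in WT libraries, and 9 of the 10 tested were DEGs, all lower, against 0.932% of all genes. That of 8 stellate and mesenchymal markers was 50.1 to 61.1 CPM against 25.8 to 29.3 CPM, with *Dcn* and *Acta2* as DEGs that were higher. Hepatocyte, cholangiocyte, lymphocyte and neutrophil markers summed to at most 51.6, 5.10, 6.29 and 0.408 CPM, and *Cd3e*, *Nkg7*, *Mpo* and *Retnlg* had no count. The part of these other cell types in the results below was not tested, and fewer cells of a type and less RNA per cell cannot be told apart in such bulk samples.

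Levels below are CPM scaled with TMM factors, a normalization for library composition, and means are given ± SD over the 3 libraries of a genotype. QuantSeq reads start at the 3' end of a transcript, so a level does not grow with transcript length. Other differences between genes in how their 3' ends are read and counted were not tested, so orders of genes are those of measured levels. In WT LSECs the order of mean levels was *Ehd3*, *Ehd4*, *Ehd1*, *Cav1*, *Cav2*, *Pacsin2*, *Plvap*, *Ehd2* and *Pacsin3*, from 723 to 2.24 CPM. The WT libraries overlapped for the neighbours *Cav1* and *Cav2* and for *Ehd2* and *Pacsin3*, and for no other neighbours in this order. In *Txnip*-/- LSECs the order was the same except that *Ehd1* stood above *Ehd4*, and the neighbours whose libraries overlapped were *Ehd1* and *Ehd4* as well as *Ehd2* and *Pacsin3*. *Ehd3*, long known as a gene of sinusoidal and glomerular endothelium, stood at the 98.7th percentile of all genes tested by mean level, and *Ehd2* and *Pacsin3* at the 16.8th and 14.5th. The summed level of the 9 genes was 1262 to 1400 CPM in *Txnip*-/- and 1300 to 1350 CPM in WT libraries, so the genotypes overlapped. *Txnip*-/- replicate 1 had the highest sum and the highest *Txnip*-/- level of 6 of the 9 genes.

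**Figure D1:**
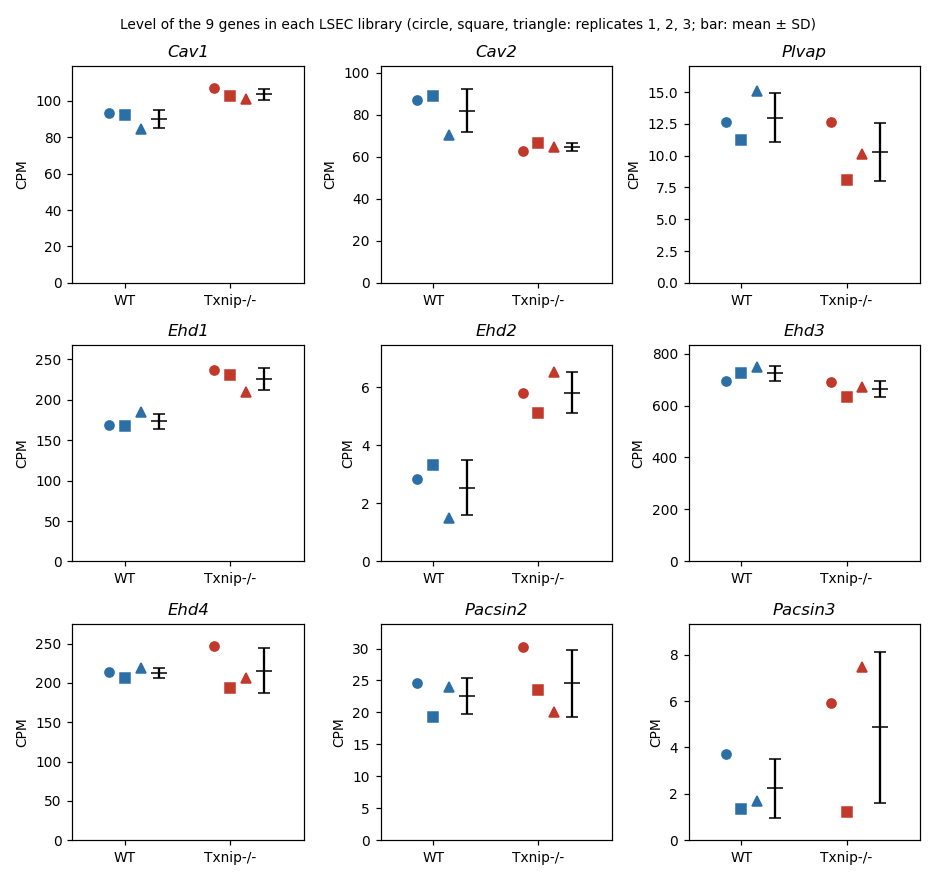
Level of each of the 9 genes in CPM (y axes, linear and starting at 0, a separate scale for each gene) in the 3 WT and the 3 *Txnip*-/- LSEC libraries, with circles, squares and triangles for replicates 1, 2 and 3 and bars for the mean ± SD. The points of the genotypes do not overlap for *Cav1*, *Cav2*, *Ehd1*, *Ehd2* and *Ehd3*, although for *Ehd3* the gap is between 692 and 694 CPM.

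The caveolin genes lie side by side. *Cav2* is at chr6:17281185-17289115 and *Cav1* at chr6:17306335-17341452 (GRCm38, GENCODE M21), both on the plus strand, with *Cav2* upstream and 17219 bases between them, and their longest coding transcripts have 3 and 2 exons. The 250 bases before each start, from the RefSeq promoter table of GRCm38.p6, are shown because the fitted differences of these neighbours had opposite signs. Capitals mark matches, on either strand, to any of 5 motifs, and no pair of matches overlapped. The motifs were the TATA box with the letters TATAAA, the CCAAT box, the GC box with the letters GGGCGG, the AP-1 site with the letters TGACTCA and the ETS core with the letters CCGGAA.
Cav2, chr6:17280935-17281184, plus strand: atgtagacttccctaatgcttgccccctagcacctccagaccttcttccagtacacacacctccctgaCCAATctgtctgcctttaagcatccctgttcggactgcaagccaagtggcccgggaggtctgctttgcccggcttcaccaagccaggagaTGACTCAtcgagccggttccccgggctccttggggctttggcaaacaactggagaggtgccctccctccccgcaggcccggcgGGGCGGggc
Cav1, chr6:17306085-17306334, plus strand: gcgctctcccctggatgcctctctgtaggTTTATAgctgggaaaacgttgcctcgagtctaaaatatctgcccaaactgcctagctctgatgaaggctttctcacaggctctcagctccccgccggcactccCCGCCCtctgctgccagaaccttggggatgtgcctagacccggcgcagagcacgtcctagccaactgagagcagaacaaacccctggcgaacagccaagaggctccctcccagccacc
The *Cav2* window held matches to the CCAAT box 182 bases, the AP-1 site 92 bases and the GC box 9 bases before the start, all on the plus strand. The *Cav1* window held matches to the TATA box letters 221 bases and the GC box 118 bases before the start, both read on the minus strand. A match of letters does not show a working site, and a link to the opposite signs was not tested. Among the 32851 promoter windows of this length in the table, 12.4% held the TATA box letters, 33.8% the CCAAT box, 32.7% the GC box, 4.46% the AP-1 site and 12.0% the ETS core, which was in neither caveolin window. The GC content was 62.0% for *Cav2* and 59.6% for *Cav1*, against a median of 52.4%.

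*Cav1* encodes caveolin-1, the protein without which endothelial caveolae do not form. Its level was 107, 103 and 101 CPM in *Txnip*-/- replicates 1, 2 and 3 and 93.5, 92.0 and 84.7 CPM in WT replicates 1, 2 and 3. Every *Txnip*-/- library was above every WT library, with means of 104 ± 3.15 and 90.1 ± 4.71 CPM. The log2 fold change was 0.20 (SE 0.10, 95% interval -0.01 to 0.41) and did not pass the test (edgeR adjusted p = 0.466). It was 0.16 without WT replicate 3 and 0.29 with the term for WT replicates 1 and 2.

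*Cav2* encodes caveolin-2, which joins caveolin-1 in hetero-oligomers. Its level went the other way, with 62.5, 66.6 and 64.6 CPM in *Txnip*-/- and 86.8, 88.8 and 70.1 CPM in WT replicates. The *Txnip*-/- libraries were close together and all below the WT libraries, of which WT replicate 3 was the lowest and nearest to them. The means were 64.6 ± 2.02 and 81.9 ± 10.3 CPM, and the log2 fold change of -0.34 (SE 0.12, interval -0.59 to -0.09) did not pass the test (edgeR adjusted p = 0.225). This result rested on the choice of WT libraries. Without WT replicate 3 the log2 fold change was -0.44 and *Cav2* met the DEG rule (edgeR adjusted p = 0.0339), and with the term for WT replicates 1 and 2 it was -0.12 (edgeR adjusted p = 0.782).

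Within a library the caveolins can be compared as a share of their joint counts, which does not depend on how libraries are scaled. *Cav1* took 63.1%, 60.6% and 61.0% of the caveolin counts in *Txnip*-/- and 51.9%, 50.9% and 54.7% in WT replicates. The highest WT share, with a 95% Clopper-Pearson interval of 52.1% to 57.3%, lay below the lowest *Txnip*-/- share, with an interval of 58.2% to 63.0%, where the intervals cover counting error only. The mean share was 61.6 ± 1.35% against 52.5 ± 1.98%, a difference of 9.10 percentage points. The two-sided exact permutation test gave p = 0.1, the smallest p that 3 against 3 libraries allow. Its outcome was fixed, because the levels of *Cav1* and *Cav2* already lay apart in opposite directions, so it adds no evidence to them. In counts, *Cav1* exceeded *Cav2* by 1.71, 1.54 and 1.56 times in *Txnip*-/- and by 1.08, 1.04 and 1.21 times in WT replicates. The difference in share was 10.2 points without WT replicate 3 and between 8.31 and 10.2 points when any single library was left out.

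*Plvap* (chr8:71497765-71511752, minus strand), the diaphragm gene, was low in these LSECs, at the 33.8th percentile of all genes tested. It had 113, 79 and 95 counts in *Txnip*-/- and 130, 118 and 143 counts in WT replicates. In CPM these were 12.6, 8.05 and 10.2 against 12.7, 11.2 and 15.1, so the genotypes overlapped. The log2 fold change of -0.34 (SE 0.25, interval -0.87 to 0.19) did not pass the test (edgeR adjusted p = 0.673), and the interval spans zero. Leaving out *Txnip*-/- replicate 1 gave -0.51 and leaving out *Txnip*-/- replicate 2 gave -0.19. The value was -0.22 without WT replicate 3 and -0.56 when that library alone stood for WT.

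*Ehd1* (chr19:6276725-6300096, plus strand, 5 exons) encodes a protein of the endocytic recycling compartment, from which receptors return to the cell surface. Its level was 236, 230 and 210 CPM in *Txnip*-/- and 168, 167 and 184 CPM in WT replicates. All *Txnip*-/- libraries were above all WT libraries, with the nearest pair formed by *Txnip*-/- replicate 3 and WT replicate 3. The means of 225 ± 14.0 and 173 ± 9.61 CPM gave a log2 fold change of 0.38 (SE 0.09, interval 0.19 to 0.57, edgeR adjusted p = 0.0465). The fold change of 1.301 was just past the limit of 1.3, and *Ehd1* ranked at position 170 by p. The call was lost when any library other than WT replicate 3 was left out, with log2 fold changes between 0.34 and 0.43 over all 6 such fits. It was also lost with the replicate block (edgeR adjusted p = 0.140), without normalization factors (edgeR adjusted p = 0.147) and without the filter on low counts, where the fold change fell under 1.3. The value was 0.29 with the term for WT replicates 1 and 2 (edgeR adjusted p = 0.224), and without WT replicate 3 it was 0.43 (edgeR adjusted p = 0.00827).

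*Ehd2* (chr7:15946958-15967567, minus strand) encodes the EHD protein that holds caveolae at the plasma membrane. It had 52, 50 and 61 counts in *Txnip*-/- and 29, 35 and 14 counts in WT replicates. The levels of 5.81, 5.10 and 6.52 CPM against 2.82, 3.33 and 1.48 CPM did not overlap. The log2 fold change of 1.18 (SE 0.45, interval 0.23 to 2.13) was larger in size than that of 96.9% of all genes tested, but at these counts it did not pass the test (edgeR adjusted p = 0.291). This rank by size was taken over genes of all levels, and *Pacsin3*, also low and with overlapping genotypes, stood at the 96.4th percentile. The log2 fold change of *Ehd2* was 0.91 without WT replicate 3, the WT library with the fewest counts, and 1.96 when that library alone stood for WT.

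*Ehd3* (chr17:73804134-73832094, plus strand) was the most abundant of the 9 genes in both genotypes. Its level was 692, 631 and 672 CPM in *Txnip*-/- and 694, 727 and 749 CPM in WT replicates. The genotypes did not overlap, but *Txnip*-/- replicate 1 and WT replicate 1 were nearly equal. The log2 fold change of -0.12 (SE 0.08, interval -0.28 to 0.04) did not pass the test (edgeR adjusted p = 0.598), and it was -0.10 without WT replicate 3 and -0.17 with the term.

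*Ehd4* (chr2:120089175-120154606, minus strand) encodes an EHD protein of early endosomes. Its level was 247, 193 and 206 CPM in *Txnip*-/- and 214, 207 and 219 CPM in WT replicates. The highest and the lowest of the 6 values were both *Txnip*-/- libraries. The log2 fold change was 0.02 (SE 0.10, interval -0.20 to 0.23, edgeR adjusted p = 0.972), and its sign turned without *Txnip*-/- replicate 1, to -0.094. It was 0.035 without WT replicate 3 and -0.025 with the term. The difference was smaller in size than that of most genes, at the 5.05th percentile.

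The EHD genes were also compared as shares of their joint counts within each library. *Ehd1* took 20.004%, 21.7% and 19.2% of the EHD counts in *Txnip*-/- and 15.6%, 15.1% and 16.0% in WT replicates. *Ehd3* took 58.6%, 59.6% and 61.4% against 64.3%, 65.8% and 64.9%. The shares of *Ehd1* and of *Ehd3* did not overlap between genotypes, with mean differences of 4.73 and -5.18 percentage points (exact permutation test, p = 0.1 for each, the smallest possible). The share of *Ehd2* was 0.523 ± 0.0636% against 0.231 ± 0.0909% and did not overlap either, whereas that of *Ehd4* was 19.3 ± 1.42% against 19.2 ± 0.572% and did overlap (exact permutation p = 0.9). *Ehd1* had fewer counts than *Ehd4* in all WT libraries, with ratios of 0.787, 0.809 and 0.841, and the ratios were 0.956, 1.19 and 1.02 in *Txnip*-/- libraries. Over the 8 shares and 4 ratios of counts compared, 8 of 12 reached the smallest exact permutation p, which was 0.15 after Benjamini-Hochberg adjustment, so none can pass 0.05 in this design. The 12 are not separate comparisons, because the shares of a family depend on each other and the ratios use the same counts. The levels of *Cav1*, *Cav2*, *Ehd1*, *Ehd2* and *Ehd3* already lay apart between genotypes. How often shares or ratios of other genes lie apart was not computed, so the count of 8 is no result about these families. The shares of *Cav1* and *Cav2* mirror each other, as do those of *Pacsin2* and *Pacsin3*, which overlapped between genotypes (exact permutation p = 0.4).

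**Figure D2:**
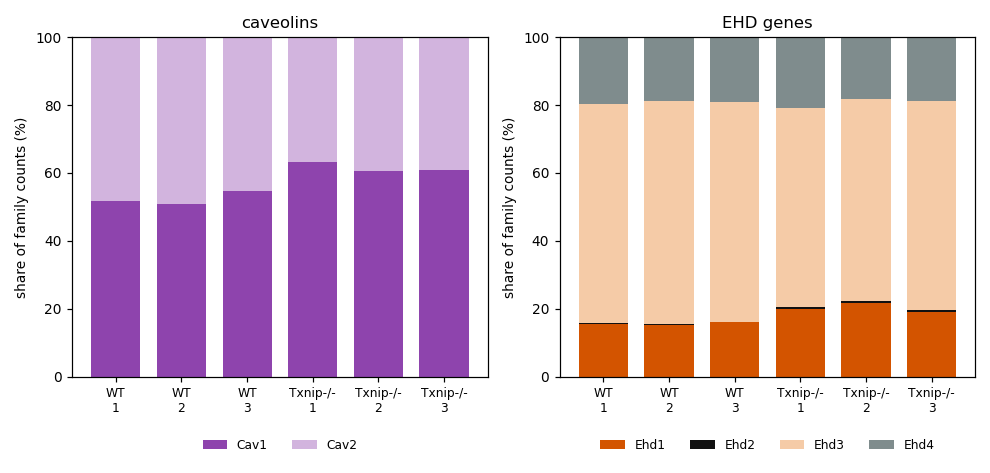
Share of the joint caveolin counts (left) and of the joint EHD counts (right) taken by each gene, in percent (y axes from 0 to 100), with 1 stacked bar for each library. The *Cav1* part is larger in all *Txnip*-/- bars (60.6% to 63.1%) than in all WT bars (50.9% to 54.7%), and so is the *Ehd1* part (19.2% to 21.7% against 15.1% to 16.0%).

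*Pacsin2* (chr15:83375607-83464606, minus strand) encodes the widely expressed pacsin that is found at caveolae. Its level was 30.3, 23.4 and 19.99 CPM in *Txnip*-/- and 24.5, 19.3 and 23.9 CPM in WT replicates. The genotypes overlapped over most of their range, with a log2 fold change of 0.12 (SE 0.19, interval -0.28 to 0.53, edgeR adjusted p = 0.888). It was 0.16 without WT replicate 3, 0.038 with the term and -0.056 without *Txnip*-/- replicate 1. Of the 2379 runs of 50 bases in the last 500 bases of its transcripts, 10 occurred in transcripts of other genes, and the authors counted reads with several alignments, so a few of its counts may belong elsewhere. The other 8 genes shared no such run, and the last 500 bases of none of the 9 overlapped an exon of another gene.

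*Pacsin3* (chr2:91255954-91264679, plus strand) encodes a pacsin best known from muscle. It had 53, 12 and 70 counts in *Txnip*-/- and 38, 14 and 16 counts in WT replicates. The *Txnip*-/- libraries held both the highest and the lowest value, so the genotypes overlapped. The log2 fold change of 1.11 had an SE of 0.62 and an interval from -0.20 to 2.42, and it did not pass the test (edgeR adjusted p = 0.531). Leaving out *Txnip*-/- replicate 3 gave 0.66, leaving out *Txnip*-/- replicate 2 gave 1.57, and leaving out WT replicate 1 gave 1.68. The value was 0.95 without WT replicate 3 and 1.52 with the term.

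**Figure D3:**
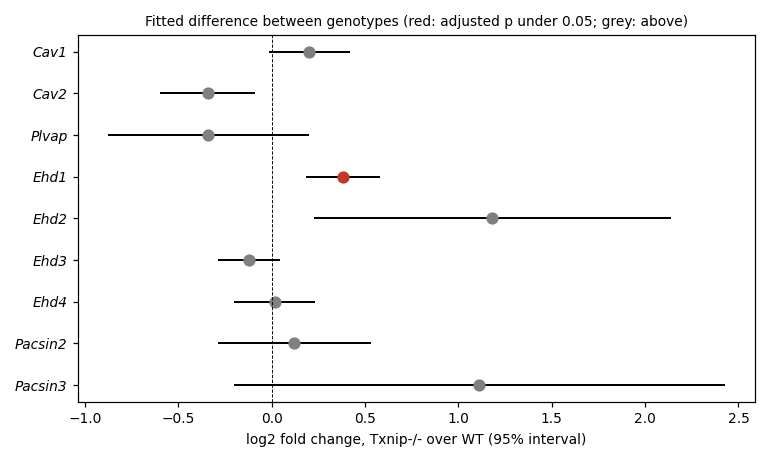
Fitted log2 fold change of each of the 9 genes, *Txnip*-/- over WT (x axis, points), with its 95% interval (lines), red where the edgeR adjusted p was under 0.05 and grey otherwise. *Ehd1* at 0.38 is the red point, and the intervals of *Cav2* (-0.59 to -0.09) and *Ehd2* (0.23 to 2.13) also leave out 0.

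Over the 9 genes, 6 had a log2 fold change above 0, as had 50% of all genes, and 3 below, with a median of 0.12 beside a median of all genes close to 0. The direction was kept by *Cav1*, *Cav2*, *Plvap*, *Ehd1*, *Ehd2*, *Ehd3* and *Pacsin3* under all 16 alternatives, and not by *Ehd4* and *Pacsin2*. The 9 genes ranged from -0.34 to 1.18 in log2 fold change. The macrophage markers tested ranged from -2.07 to -0.75 and the stellate and mesenchymal markers tested from 0.04 to 1.47, and the part of either cell type in the differences of the 9 genes was not tested.

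**Figure D4:**
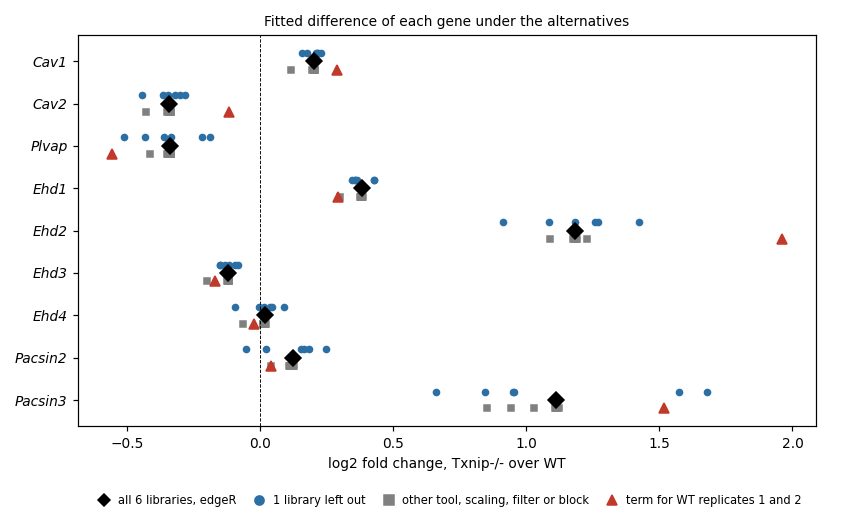
Log2 fold change of each of the 9 genes, *Txnip*-/- over WT (x axis), from the edgeR fit with all 6 libraries (diamonds), with 1 library left out (circles), with another tool, scaling, filter or the replicate block (squares), and with the term for WT replicates 1 and 2 (triangles). The marks of *Ehd4* and *Pacsin2* lie on both sides of 0, and those of the other genes lie on one side.

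The rest of the caveolar coat was described by a list of 16 genes, of which 9 passed the filter on low counts. None of the 9 met the DEG rule, 5 were above 0 and 4 below, with a median log2 fold change of 0.02. The cavins coat the bulb of caveolae. Cavin-1 (file symbol *Ptrf*) was at 393 ± 5.75 CPM in *Txnip*-/- and at 387 ± 16.4 CPM in WT libraries (log2 fold change 0.02, SE 0.08, edgeR adjusted p = 0.947). Cavin-2 (*Sdpr*) was at 432, 440 and 486 CPM in *Txnip*-/- and at 532, 579 and 413 CPM in WT replicates, where WT replicate 3 was below every *Txnip*-/- library (log2 fold change -0.17, edgeR adjusted p = 0.605). Without WT replicate 3 its log2 fold change was -0.30 (edgeR adjusted p = 0.0318), and with the term for WT replicates 1 and 2 it turned to 0.13. Cavin-3 (*Prkcdbp*) had 32, 32 and 36 counts against 6, 46 and 9, so its WT libraries spanned the *Txnip*-/- values. *Nos3*, the endothelial nitric oxide synthase that caveolin-1 binds, was at 11.8 ± 1.81 and 10.7 ± 1.54 CPM (edgeR adjusted p = 0.906). *Cav3*, *Mlc1* and cavin-4 (*Murc*) had no count in any library, where 3 counts would have been the floor.

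In the same list *Flot1*, which encodes a scaffold of flotillin microdomains, had the smallest p. It had 764, 774 and 748 counts in *Txnip*-/- and 1030, 1105 and 1094 counts in WT replicates. The genotypes did not overlap, and the log2 fold change of -0.40 (SE 0.10) missed the threshold after adjustment (edgeR adjusted p = 0.0749). *Emp2*, which encodes a tetraspan protein known to affect caveolin levels, had 32, 52 and 43 counts against 12, 18 and 0, with means of 4.49 and 0.961 CPM and an edgeR adjusted p of 0.222.

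Among 26 genes of EHD partners and recycling endosomes, 23 passed the filter, 14 above 0 and 9 below, with a median log2 fold change of 0.03. None was a DEG, and *Rab11fip2*, which encodes a Rab11 effector of recycling, alone had an unadjusted p under 0.05, at 18.3 ± 1.25 against 13.5 ± 1.21 CPM (log2 fold change 0.44, edgeR adjusted p = 0.412). Among 26 genes of dynamins, BAR-domain proteins and the clathrin coat, 20 passed the filter, 11 above 0 and 9 below, with a median of 0.01 and no DEG. *Bin1*, an amphiphysin-like membrane-bending protein, had 796, 935 and 751 counts in *Txnip*-/- and 711, 702 and 577 in WT replicates. Its levels did not overlap, and its log2 fold change of 0.42 (SE 0.11) missed the threshold after adjustment (edgeR adjusted p = 0.0776). *Fcho2*, an F-BAR protein of early clathrin-coated pits, was at 63.0 ± 2.20 against 75.7 ± 2.39 CPM (log2 fold change -0.26, edgeR adjusted p = 0.340). Over these 3 lists the genotypes lay apart for 2 of 9, 2 of 23 and 4 of 20 genes, against 17.4% of all genes.

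**Figure D5:**
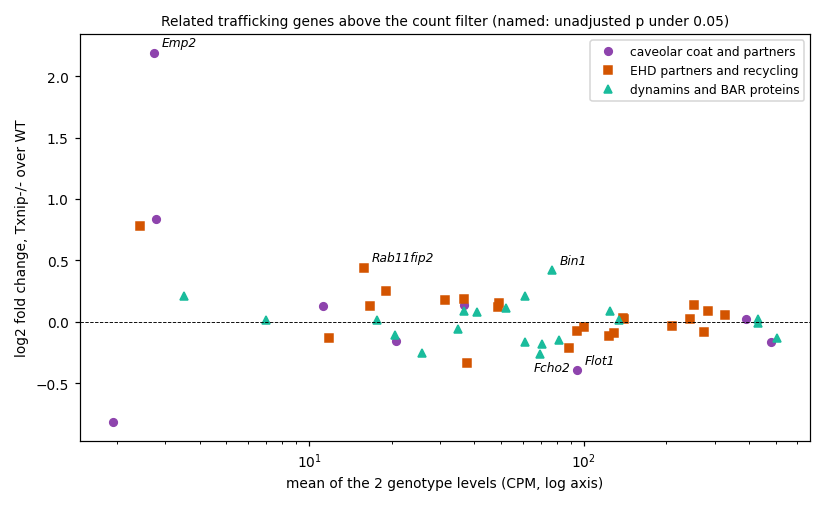
Log2 fold change, *Txnip*-/- over WT (y axis), against the mean level in CPM (x axis, log scale) of the related genes that passed the filter, by list (circles, caveolar coat; squares, EHD partners and recycling; triangles, dynamins and BAR proteins). The named genes are those with an unadjusted p under 0.05, and among genes over 10 CPM *Bin1* (0.42) and *Rab11fip2* (0.44) lie highest and *Flot1* (-0.40) lowest.

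For 4 of the 9 genes, the genes of most similar pattern over the 6 libraries were found among 6239 genes with a mean over 20 CPM, by the root mean square difference of log2 levels after centring each gene on its mean. For *Cav1* these were *Raph1*, *Eef1g* and *Rbm17*, with differences of 0.026, 0.026 and 0.028. For *Ehd3* they were *Cox6a1* (0.022), *Tmem2* (0.023) and *Ptpn1* (0.024), and for *Ehd4* they were *Tuba4a* (0.022), *E030024N20Rik* (0.026) and *Ubac1* (0.028). The nearest genes to *Plvap*, whose few counts scatter more, were *Repin1* (0.083), *Sharpin* (0.085) and *Rab6b* (0.090).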

How the data were processed

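RNA of LSECs was measured by single-end QuantSeq 3' mRNA sequencing in 3 *Txnip*-/- and 3 WT libraries. The deposited values are raw counts per gene symbol, which the authors made by aligning with Bowtie2 and counting, with bedtools, reads that aligned once or several times. The submitters' processing notes name mm10, which is GRCm38. Tool versions, the annotation and the use of strand are not given in the sources used here. Counts of multiple alignments can mix near-identical genes. Of the 23282 rows, 44 repeated a symbol and were kept apart. The ribosomal precursor row *Rn45s* took 16.8% to 18.6% of the counts in *Txnip*-/- libraries and 10.0%, 9.68% and 17.8% in WT replicates 1, 2 and 3.

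Genotypes were compared with the quasi-likelihood test of edgeR 4.0.16 (R 4.3.3) on the 11583 genes kept by filterByExpr, with TMM factors, a model of genotype alone and Benjamini-Hochberg adjustment over these genes. A DEG needed a fold change of more than 1.3 and an adjusted p below 0.05, and 167 genes were DEGs, 59 higher and 108 lower (35 and 145 without normalization factors). The study's methods state a log fold change, read here as a fold change. The SE is the log2 fold change over the root of F. Shares and ratios of counts were compared by two-sided exact permutation tests. Clopper-Pearson intervals and floors cover counting error only, as no molecular identifiers are named, whereas intervals of log2 fold changes come from the edgeR fit and include the spread between libraries. Positions are those of GENCODE M21, and promoters those of RefSeq, which held 7 of the 9 genes.

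Data were simulated for *Txnip*-/- against WT with 11583 genes. The edgeR test called 29 of 66 genes changed 1.5-fold (43.9%), 46 of 65 changed 2-fold (70.8%) and 57 of 66 changed 4-fold (86.4%). Beside these true calls, 18 calls were false. Calls here used the adjusted p without the fold threshold, and no outlying WT library was simulated.

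The 9 genes and the lists were chosen with earlier results of these data known. The genes named are *Txnip*, the 9 genes, from each related list the DEGs, then those with an adjusted p under 0.05, then up to 6 with the smallest unadjusted p under 0.05, the cavins 1 to 3 and *Nos3*, and 3 genes most alike in pattern for *Cav1*, *Plvap*, *Ehd3* and *Ehd4*. *Cav3*, *Murc*, *Mlc1* and some markers are named beside them for counts at or near 0. Other markers are named as DEGs of the LSEC list or of the stellate and mesenchymal list. *Lyve1* is named for its part in the LSEC marker sum, and the continuous endothelium markers are all named. Alternatives were DESeq2 1.42.0, limma-trend (limma 3.58.1), other normalization factors, other filters, leaving out *Rn45s*, the replicate number as a block, each library left out, a term for WT replicates 1 and 2, and other thresholds.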

Additional observations from a re-analysis of the deposited data

How the results depend on the processing

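The number of DEGs (167) was 301 without the filter on low counts, 108 with the replicate block, 57 at a log2 fold change above 1.3, 1336 at an unadjusted p under 0.05, and 89 to 301 with 1 library left out, the highest without WT replicate 3 and the lowest without WT replicate 1. With the term for WT replicates 1 and 2 it was 194, of which 96 were higher. Of the 9 genes, 1 was called, and 0 were called without normalization factors, without the filter, with the replicate block, with that term or at a log2 fold change above 1.3. At an unadjusted p under 0.05 it was 3, and with 1 library left out 0 to 2 (0 in 5 fits, *Cav2* and *Ehd1* without WT replicate 3). Of the related genes 0 were called, against 1 with DESeq2 and 1 without normalization factors (*Flot1* in both), 3 without the filter (*Flot1*, *Emp2* and *Bin1*), 1 with the term (*Emp2*), 5 at an unadjusted p under 0.05, and 0 with any library left out. *Ehd1* had a log2 fold change of 0.30 without normalization factors (edgeR adjusted p = 0.147), 0.37 without the filter (edgeR adjusted p = 0.0143, with the fold change under 1.3), 0.38 with the replicate block (edgeR adjusted p = 0.140) and 0.29 with the term, and 0.34 to 0.43 with 1 library left out (edgeR adjusted p from 0.00827 to 0.262). The cause of these differences was not tested. *Cav2* had -0.44 to -0.28 with 1 library left out and was called without WT replicate 3. *Ehd4* turned to -0.065 without normalization factors and -0.025 with the term, and ranged from -0.094 to 0.089 with 1 library left out. *Pacsin2* ranged from -0.056 to 0.24 with 1 library left out. The difference in the *Ehd4* share ranged from -0.641 to 0.715 percentage points with 1 library left out. *Ptrf* turned to -0.057 without normalization factors and -0.038 with the term, and ranged from -0.0078 to 0.055, and *Sdpr* turned to 0.13 with the term. Same-numbered libraries of the genotypes had correlations of their deviations of -0.030, 0.017 and -0.047. These values showed no pairing by number but cannot exclude it, as differently numbered libraries were not compared. The block changed no other call among the 9 and the related genes than that of *Ehd1*, and it serves as an alternative only. Over all results and alternatives, 356 values were counted as kept, while 26 moved, 11 changed sign, 9 lost the call and 7 gained one. Fold changes counted as kept by direction and side of the threshold, counts by staying near the reported value, and shares by sign alone. The *Pacsin2* share thus counted as kept, although its difference ranged from -13.1 to -1.94 percentage points with 1 library left out. Without normalization factors the median log2 fold change of all genes was -0.082. *Ehd2*, *Pacsin3* and *Plvap* had 12 to 143 counts per library, and depth and the spread between libraries were not separated for them.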
